A study of Nannospalax ehrenbergi and Mus musculus with 25 samples.

Results

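Skeletal muscle was compared between untreated mice and mice that carried a fibrosarcoma elsewhere in the neck. The comparison took every library of these kinds, 3 untreated controls and 3 from the uninjected side (UIS) of tumor-bearing animals, which made 6 of the 25 libraries of the series, and it was made across all genes. Of 47593 genes in the mouse table, 14792 were tested, namely those with a normalised count of at least 10 in at least 3 of the 6 libraries. The animals were C57BL/6 mice of 3 to 4 months, and all 6 are labelled male. The controls (M1, M2 and M5) were uninjected and gave a neck muscle biopsy. The tumor-bearing mice had received a single subcutaneous injection of 200 µg of 3-methylcholanthrene (3MCA) in the left flank of the neck, and their UIS samples came from the opposite side 11 weeks (mouse 512), 14 weeks (mouse 1019) and 12 weeks (mouse 1023) later. Each UIS library therefore combines exposure to 3MCA with the presence of a tumor, and the mouse libraries include no animal that was injected and tumor-free, so the carcinogen and the tumor cannot be told apart. The labels give the control libraries a double index sequence and the UIS libraries a single one, so group and library preparation cannot be told apart either. Below, values are normalised counts, listed in the order M1, M2, M5 for the controls and 512, 1019, 1023 for the UIS, and a log2 difference is the UIS mean minus the control mean of log2(value + 1) with its standard error (SE), n = 3 per group.

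3MCA is a polycyclic aromatic hydrocarbon that binds the aryl hydrocarbon receptor, a transcription factor that switches on cytochrome P450 genes of the CYP1 family, and these enzymes in turn oxidise the compound to DNA-damaging products. A growing tumor can act on distant muscle through circulating cytokines and hormones, and muscle wasting is known to proceed through muscle-specific ubiquitin ligases that mark proteins for the proteasome. Neck muscle in the mouse lies next to brown and white fat, tendon and nerve, so a biopsy can hold several tissues.

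The libraries were first set against their labels. Xist, the long non-coding RNA of the inactive X chromosome (chrX:103460366-103483254 in GRCm38), stood at 7116, 15.1 and 18.4 in the controls and at 10263, 2.4 and 5.2 in the UIS. The Y-linked gene Ddx3y stood at 4.9, 2179 and 3299 and at 0, 2843 and 3518. Uty, Eif2s3y and Kdm5d, 3 other Y-linked genes, split the libraries in the same way. Control M1 and UIS 512 thus carry the transcripts of female animals although they are labelled male, 1 library in each group, and results are therefore also given from the other 4 libraries, 2 against 2.

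Muscle transcripts were abundant throughout, with Acta1, the skeletal actin, between 294083 and 738105, while Krt5 of skin and Tg of the thyroid did not exceed 6.0. Other gland transcripts were present. The 7 salivary and thyroid gland markers summed to 10927, 1393 and 19129 in the controls and to 1375, 2681 and 2857 in the UIS. Most of this came from the amylase gene Amy1. Smr3a, a salivary gland gene, was found only in controls M1 and M5. All 6 libraries were deep, at 22143060 to 31179183 reads. UIS 512 stood apart from the other 5. The first principal component held 57.5% of the variance and placed UIS 512 at 143 and the others between -46.2 and -3.04. Its rank correlation with the other libraries across genes was 0.881 to 0.919, against 0.939 to 0.983 among the remaining 5. A log2 difference or list median that moved by more than 1.5 times without it is given both ways. In bulk tissue, fewer cells of a type and less RNA per cell cannot be told apart.

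No gene passed an adjusted p of 0.05 in limma (0% of the genes tested), and the smallest adjusted p was 0.293. At an unadjusted p under 0.05, limma found 515 genes higher in the UIS (3.48%) and 1106 lower (7.48%). The values of the groups did not overlap in 1410 genes that were higher in all 3 UIS libraries than in any control (9.53%) and in 1728 that were lower (11.7%). Of these, 37 of the higher genes were under 10 in every control and 91 of the lower ones under 10 in every UIS library, so they could pass the filter only through the other group and had to be free of overlap. On the whole reads recovered from the deposited values, edgeR also called no gene, with 1722 at an unadjusted p under 0.05, and DESeq2 called 342, of which 114 were higher (0.771%) and 228 lower (1.54%). Groups overlapped in 26 of these 342. A permutation test of a single gene could not go below an exact two-sided p of 0.1 with 3 against 3 libraries. Without UIS 512, limma and edgeR still called no gene and DESeq2 called 550, 282 of them among the 342. When the libraries with Xist reads were given a covariate of their own, limma called 1 gene, Cyp1a1. The gene lists below are accordingly described by how many members did not overlap, beside these background shares, and no difference in them is a limma call unless said so.

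**Figure D1:**
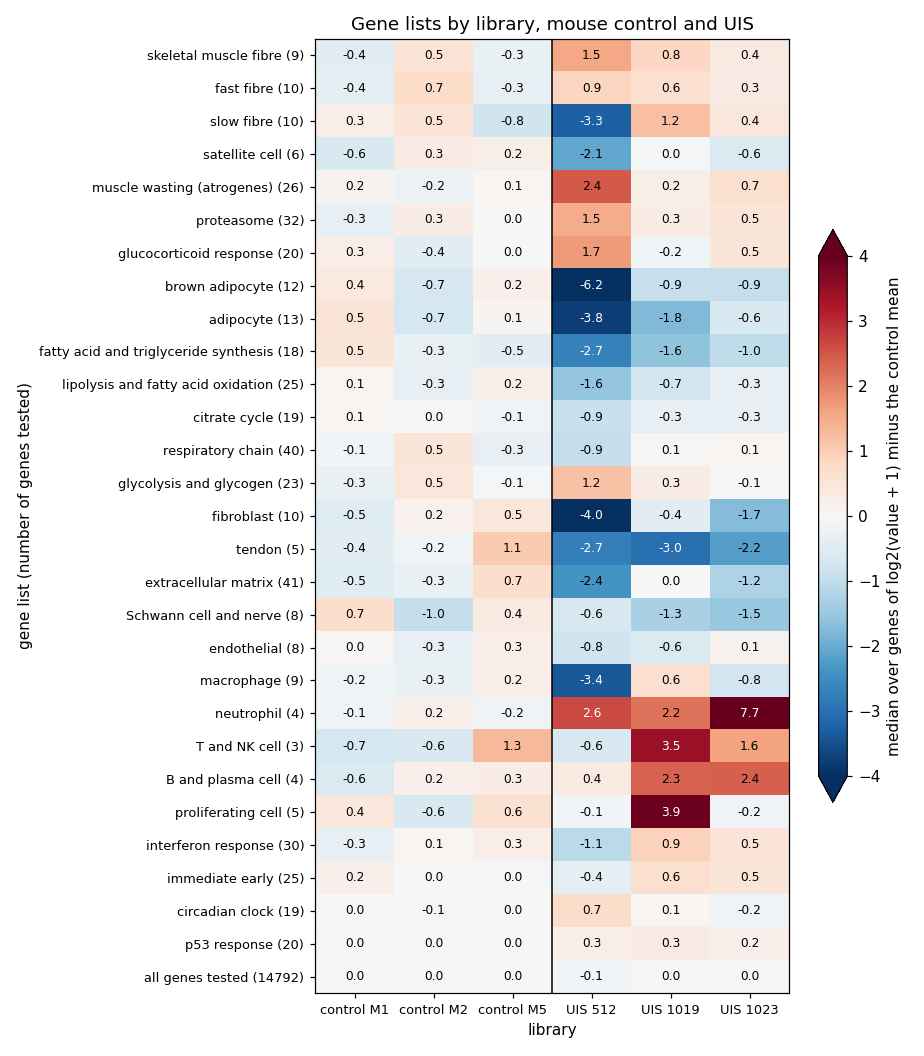
Rows are gene lists with the number of genes tested, columns are the 6 libraries, and each cell gives the median over the list of log2(value + 1) minus the control mean, coloured from -4 to 4. UIS 512 reaches -6.2 for brown adipocyte genes and 2.5 for wasting genes, UIS 1023 reaches 7.7 for neutrophil genes, UIS 1019 reaches 3.9 for proliferation genes, and the tendon list lies at -2.2 or below in all 3 UIS libraries.

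Cyp1a1, the inducible enzyme that oxidises polycyclic aromatic hydrocarbons (chr9:57687928-57703824, plus strand), gave the largest positive difference among the genes named by rule. Its values were 212, 30.1 and 41.1 in the controls and 7296, 2169 and 5126 in the UIS. The 3 UIS libraries all lay more than 10 times above the highest control, which was M1. The log2 difference was 6.05 (SE 0.77), 5.67 without UIS 512 and 6.53 in the 2 against 2 libraries without M1 and UIS 512. DESeq2 gave an adjusted p of 3.1e-10, and limma gave 0.0245 with the Xist covariate against 0.293 without it. Ahrr, the repressor of the same receptor and a known target of it, was at 4.9, 2.0 and 8.5 against 112, 13.3 and 12.4, with a log2 difference of 2.34 (SE 0.94), 1.32 without UIS 512. With every control under 10 it passed the filter only through the UIS, which fixed its lack of overlap, and its lower UIS values rest on few reads. The rest of the receptor's list did not share this separation. Of 14 genes listed, 10 were tested. Of these, 2 were higher without overlap (20%, against the background of 9.53%), 1 of them Ahrr, and none was lower. The list's median log2 difference was 0.61, falling to 0.13 without UIS 512, against -0.02 over all genes. Ahr, the receptor itself, stood at 377, 245 and 403 against 135, 198 and 324, and Nqo1, a quinone reductase, at 332, 599 and 420 against 1231, 492 and 666, so both overlapped. Cyp1a2 was at 0 in 5 of the 6 libraries and was not tested.

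**Figure D2:**
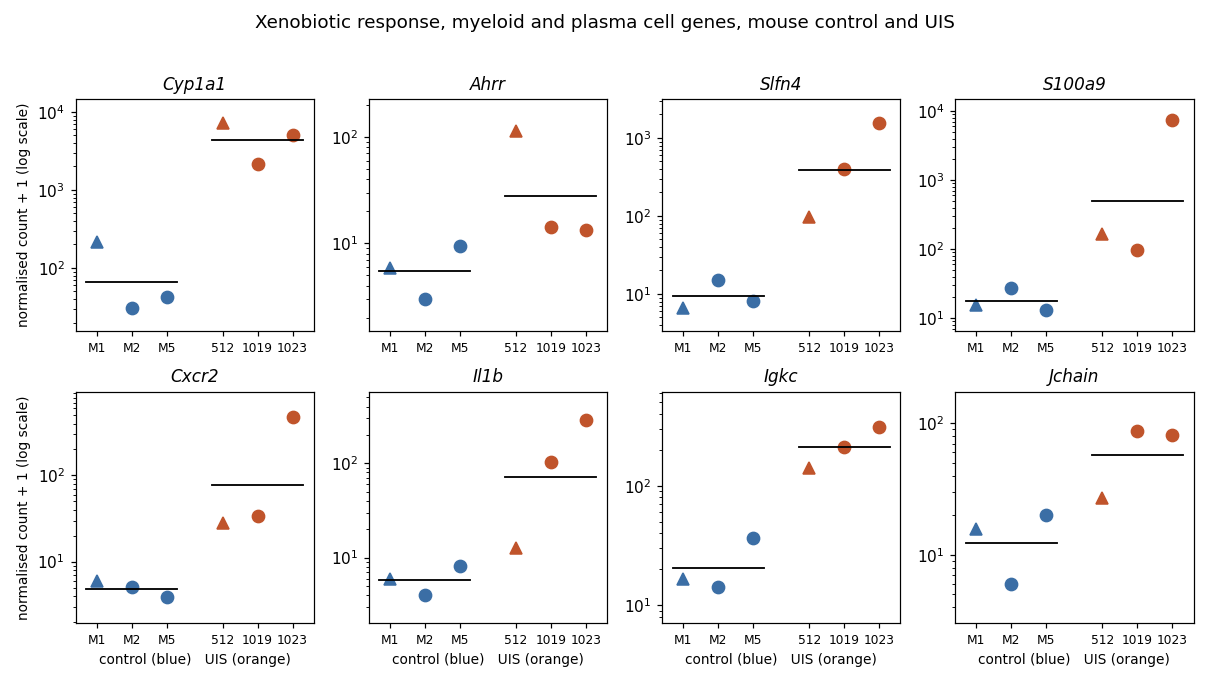
Each panel shows 1 gene with its normalised count + 1 on a log axis in the 3 control libraries (blue) and the 3 UIS libraries (orange), triangles mark the 2 libraries with Xist reads and black lines are geometric means. Cyp1a1 lies at 2169 or more in the UIS and at 212 or less in the controls, while S100a9, Cxcr2 and Il1b spread widely among the UIS libraries with UIS 1023 highest.

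Some genes of neutrophils and activated myeloid cells, among them S100a8, S100a9, Csf3r and Slfn4, were higher on the uninjected side of all 3 tumor-bearing mice, while the granule genes were far higher in UIS 1023 than in any other library. S100a9, a calcium-binding protein that fills the neutrophil cytoplasm together with S100a8, was at 14.7, 26.1 and 12.1 in the controls and at 167, 96.7 and 7437 in the UIS. Slfn4, a myeloid schlafen gene, was at 5.7, 14.1 and 7.1 against 95.0, 399 and 1572 (log2 difference 5.39, SE 0.95, 6.17 in the 2 against 2 libraries), with a DESeq2 adjusted p of 1.6e-09. The lowest UIS library, 1019 for S100a9 and 512 for Slfn4, still lay above the highest control. The chemokine receptor gene Cxcr2 (4.9, 4.0 and 2.8 against 27.4, 32.6 and 469), the receptor for granulocyte colony-stimulating factor Csf3r (19.6, 20.1 and 29.1 against 64.8, 131 and 828) and the cytokine gene Il1b (4.9, 3.0 and 7.1 against 11.5, 102 and 288) also did not overlap, which for Cxcr2 and Il1b the filter had fixed, since both were under 10 in every control. DESeq2 called Csf3r (adjusted p 0.00059) and Il1b (0.00025), and it gave S100a8, S100a9 and Cxcr2 no adjusted p. Of the 9 neutrophil markers, 4 were tested. S100a8, S100a9 and Cxcr2 were higher without overlap (75%, against the background of 9.53%), and Mmp9 overlapped at 48.9, 49.2 and 58.9 against 17.3, 155 and 439. The summed level of all 9 ran from 84.7 to 99.4 in the controls and was 386, 346 and 16671 in the UIS. The other 5 were untested. The granule genes Ngp, Camp and Ltf reached 579, 85.6 and 399 in UIS 1023, stood at 14.4, 2.9 and 4.3 in UIS 512 and at 1.2, 0 and 1.2 in UIS 1019, and did not exceed 2.1 in the controls. The surface marker Ly6g was at 45.4 in UIS 1023 and at 0 in the other 5 libraries, and Retnlg, a secreted resistin-like protein, overlapped at 4.1, 1.0 and 9.9 against 54.7, 6.0 and 1059. Il1r1, a receptor for interleukin 1, was higher without overlap as well (253, 265 and 340 against 459, 555 and 534, log2 difference 0.86, SE 0.25).

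Of 8 markers of B and plasma cells, 4 were tested, and 2 of them, Igkc and Jchain, were higher without overlap (50%, against the background of 9.53%). Igkc, the constant region of the kappa light chain, was at 15.5, 13.1 and 35.5 in the controls and at 141, 209 and 307 in the UIS (log2 difference 3.36, SE 0.50, 3.49 in the 2 against 2 libraries, DESeq2 adjusted p 7.4e-07). Jchain, which joins antibodies into polymers, was at 14.7, 5.0 and 19.1 against 25.9, 85.9 and 80.4 (log2 difference 2.21, SE 0.68, DESeq2 adjusted p 0.035). Both were above every control in each UIS library, and Jchain in UIS 512 only narrowly. Ighm, the heavy chain of IgM, overlapped at 220, 794 and 382 against 311, 668 and 422. The B cell receptor gene Cd79b overlapped too, at 4.1, 18.1 and 7.8 against 1.4, 33.9 and 38.2, with UIS 512 below every control, and the B cell markers Cd79a, Ms4a1 and Pax5 did not pass the filter. None of the 3 T and NK cell markers tested (Cd3g, Lck and Nkg7) was free of overlap. Their list's sum was highest in UIS 1019, at 358 against 18.7 to 107 in the controls. UIS 1019 also stood alone for proliferation genes. Mki67, a marker of cycling cells, was at 404 in it and between 11.1 and 44.4 in the other 5 libraries, and Top2a was at 497 against 2.9 to 36.2. Without UIS 1019 the log2 differences of Mki67 and Top2a were -0.08 and -1.36. Of 30 interferon response genes, all tested, none was free of overlap in either direction. Their median log2 difference was 0.12, 0.63 without UIS 512 and 0.54 in the 2 against 2 libraries. The list's median in each library was -0.32, 0.07 and 0.26 in the controls and -1.09, 0.91 and 0.51 in the UIS, so UIS 1019 and 1023 lay above every control and UIS 512 below.

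Part of the genes of muscle protein breakdown were higher in the UIS, by most in UIS 512. Of 26 genes of the wasting list, all tested, 9 were higher without overlap (34.6%, against the background of 9.53%) and none was lower without overlap, and the median log2 difference was 1.12 with UIS 512 and 0.45 without it. General markers of the muscle fibre were higher without overlap in a like share. Of 9 tested, 3 were higher without overlap (33.3%) and none was lower, with a median of 0.87, and 0.54 without UIS 512. By this share the rise was not particular to the wasting list. DESeq2 called 5 of the wasting genes as higher and none of the fibre markers. In UIS 512 the list medians were 2.45 for wasting and 1.54 for the fibre markers. Fbxo32, the ubiquitin ligase subunit atrogin-1 (chr15:58175879-58214932, minus strand), was at 4648, 3365 and 11459 in the controls and at 178089, 8230 and 37709 in the UIS. The groups overlapped, since UIS 1019 lay below control M5. The log2 difference was 2.76 (SE 1.05), 1.64 without UIS 512, with a DESeq2 adjusted p of 0.0067 that rose to 0.11 without that library. Trim63, the ligase MuRF1, was picked after its values were seen and had the same order, at 3011, 2991 and 5906 against 236435, 5402 and 18019 (DESeq2 adjusted p 0.0018, 0.077 without UIS 512). Tgif1, a transcriptional repressor, did not overlap, at 161, 90.4 and 130 against 1769, 248 and 296 (log2 difference 2.02, SE 0.73, DESeq2 adjusted p 0.022, and 1.12 with p 0.057 without UIS 512). Ctsl, a lysosomal protease, did not overlap either (4625, 4803 and 5076 against 19775, 7459 and 7408). Of the exon bases of Ctsl, 26.8% lie under exons of another gene on either strand, and 6.09% under one on its own strand.

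The proteasome, which degrades what these ligases mark, was higher by small amounts. All 32 subunit genes tested had a positive log2 difference, 15 were higher without overlap (46.9%) and none was lower without overlap. The median log2 difference was 0.76, 0.42 without UIS 512 and 0.24 in the 2 against 2 libraries, and DESeq2 called none of the 32. Psmd4, a ubiquitin receptor of the regulatory particle, was at 2435, 3508 and 3320 against 12686, 4195 and 5235 (log2 difference 1.10, SE 0.43, 0.62 without UIS 512), and the ATPase Psmc3 was at 3020, 5046 and 3866 against 11707, 5513 and 6067. The median of the list in each library was -0.32, 0.30 and 0.02 in the controls and 1.49, 0.29 and 0.50 in the UIS, so UIS 1019 lay within the range of the controls.

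Targets of glucocorticoids, stress hormones that promote wasting, were partly higher. Of 20 tested, 4 were higher without overlap (20%, namely Pdk4, Errfi1, Sgk1 and Tsc22d3) and none was lower. Pdk4, a kinase that keeps pyruvate out of the citrate cycle, was at 22761, 10571 and 28050 against 221510, 54936 and 42654 (log2 difference 2.09, SE 0.69, DESeq2 adjusted p 0.022, and 1.36 with p 0.073 without UIS 512). Errfi1, a feedback inhibitor of the EGF receptor, was at 1050, 1104 and 1111 against 6932, 1990 and 1938, and Sgk1, a hormone-induced kinase, at 3230, 4737 and 3163 against 5592, 5374 and 6495. The list's median was 0.57 and fell to 0.03 without UIS 512, and the receptor gene Nr3c1 overlapped.

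**Figure D3:**
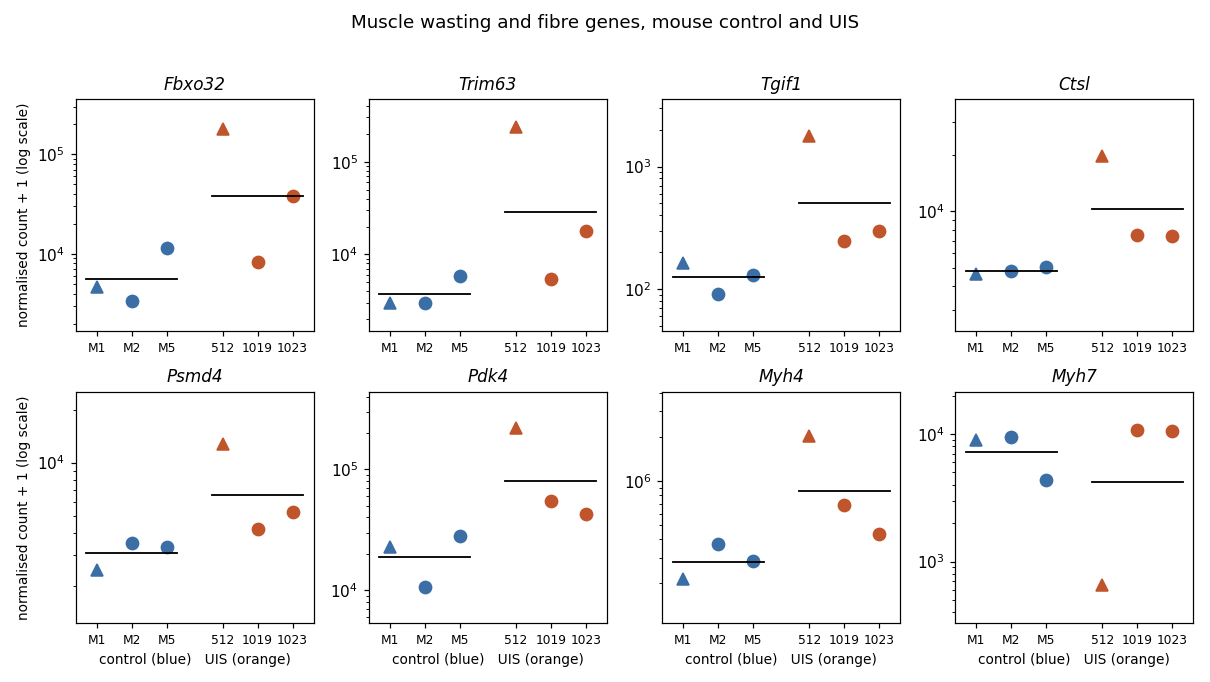
Each panel shows 1 gene with its normalised count + 1 on a log axis in the control (blue) and UIS (orange) libraries, triangles mark the 2 libraries with Xist reads and black lines are geometric means. UIS 512 is the highest library for Fbxo32, Trim63, Tgif1, Ctsl, Psmd4, Pdk4 and Myh4 and the lowest for Myh7, at 654.

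Among fibre genes, Myh4, the myosin of the fastest fibres, was at 212559, 369952 and 284580 in the controls and at 2051173, 691217 and 438046 in the UIS without overlap (log2 difference 1.60, SE 0.78, DESeq2 adjusted p 0.049, and 0.97 with p 0.094 without UIS 512). The calcium release genes Ryr1 (29017, 41511 and 38175 against 125525, 63666 and 42678) and Trdn (15102, 20527 and 13762 against 49239, 29913 and 25427) were 2 of the 5 calcium handling genes, of 16 tested, that were higher without overlap (31.2%), and none was lower. Slow fibre genes divided the UIS libraries instead. Myh7, the slow myosin, was at 9007, 9508 and 4325 against 654, 10782 and 10537, and its log2 difference turned from -0.77 to 0.57 without UIS 512. All 10 slow fibre genes had a negative log2 difference, and all 10 a positive one without UIS 512, so the list's median went from -0.47 to 0.65. Which neck muscle each biopsy came from is not given in the sources used here.

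Ostn, the muscle-secreted peptide musclin, was at 11.4, 29.1 and 14.9 against 609, 109 and 89.7 without overlap (log2 difference 3.33, SE 0.77, DESeq2 adjusted p 0.00024). Mustn1, a small nuclear protein of the musculoskeletal system, was at 1322, 1381 and 1173 against 8454, 17809 and 2374 (DESeq2 adjusted p 0.00074). Cd24a, a surface glycoprotein, was among the most even, at 3224, 4243 and 3615 against 11735, 9523 and 10040 (log2 difference 1.50, SE 0.24, 1.32 in the 2 against 2 libraries, DESeq2 adjusted p 2.6e-05). Satellite cells, the stem cells of muscle, gave a mixed picture. Pax7, their defining transcription factor, was lower, at 79.0, 153 and 143 against 17.3, 59.2 and 32.0 (log2 difference -1.87, SE 0.53). Chodl, the lectin chondrolectin, was also lower (249, 451 and 426 against 82.1, 127 and 137, DESeq2 adjusted p 0.0036), whereas the cadherin gene Cdh15 was higher (232, 346 and 365 against 805, 403 and 552). All 3 were free of overlap, so of 6 markers 1 was higher (16.7%) and 2 were lower (33.3%), while Myf5, Calcr and Vcam1 overlapped. Of 18 genes of the neuromuscular junction and of denervation, 4 were higher without overlap (22.2%), among them Runx1 (82.3, 47.2 and 105 against 405, 255 and 111) and the acetylcholine receptor subunit gene Chrna1 (320, 353 and 304 against 674, 457 and 376), and 1, Sarm1, was lower (5.56%), under 10 in every UIS library. Myh3, the embryonic myosin of new fibres, overlapped at 86.4, 52.2 and 56.0 against 37.4, 163 and 548. The myogenic factor Myod1 was lower without overlap, but only narrowly (357, 461 and 247 against 30.2, 238 and 242). Of the 7 genes of developing or regenerating fibres tested, 2 were higher without overlap (28.6%), among them Chrna1, and Myod1 was the 1 that was lower (14.3%).

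Transcripts of fat were lower in the UIS. Ucp1, the uncoupling protein that defines brown fat (chr8:83290352-83298452, plus strand), was at 45978, 24005 and 42398 in the controls, so brown fat RNA was present in all 3 control biopsies. In the UIS it was at 0, 13180 and 2217. Of the 12 brown adipocyte markers, all tested, 7 were lower without overlap (58.3%, against the background of 11.7%) and none was higher without overlap. Their summed level ran from 40003 to 70429 in the controls and was 1166, 25430 and 17681 in the UIS, and the list's median log2 difference was -3.12, -1.15 without UIS 512 and -0.83 in the 2 against 2 libraries. Otop1, a proton channel of brown fat, was at 1929, 836 and 1584 against 1.4, 417 and 253 (log2 difference -4.42, SE 1.77, -2.07 without UIS 512). Elovl3, an elongase induced by cold, was at 1348, 240 and 301 against 4.3, 238 and 27.9, so its groups only just failed to meet. DESeq2 called none of the 12 with all 6 libraries, and Ucp1, Otop1 and Cpn2 (adjusted p 0.014, 0.00017 and 0.00012) without UIS 512.

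General fat cell markers were lower as well, and their list does not separate white fat from brown. Of 13 adipocyte genes, all tested, 8 were lower without overlap (61.5%, against the background of 11.7%) and none was higher without overlap. The median log2 difference was -1.98, and -1.19 without UIS 512. Cidec, a lipid droplet protein, was at 9961, 5183 and 12939 against 785, 1779 and 4388 (log2 difference -2.26, SE 0.63). Lep, the satiety hormone leptin, was at 430, 158 and 284 against 8.6, 31.4 and 157 (log2 difference -2.88, SE 0.95, -1.91 without UIS 512), with UIS 1023 only just below the lowest control. Adipoq, the defining adipokine, overlapped at 10654, 5349 and 10058 against 606, 2462 and 7122. How much fat each biopsy held was not measured independently of these transcripts, and the part of fat content in the lipid genes that follow was not tested.

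Most enzymes of fatty acid and triglyceride synthesis were lower in every UIS library. All 18 genes of the list were tested, 13 were lower without overlap (72.2%) and none was higher without overlap, the median log2 difference was -1.95, and DESeq2 called 6, all lower (Acaca, Fasn, Scd1, Elovl6, Srebf1 and Gpam). Fasn, fatty acid synthase (chr11:120805846-120824547, minus strand), was at 65919, 20738 and 7649 in the controls and at 294, 2841 and 2700 in the UIS (log2 difference -4.06, SE 1.05, DESeq2 adjusted p 0.00078). Scd1, which desaturates the product, was at 189635, 78291 and 53347 against 2754, 21797 and 15775 (log2 difference -3.24, SE 0.84). Control M1 held the highest value of both, and without M1 and UIS 512 the log2 differences were -2.19 and -1.80, with the list's median at -1.09. Gpam, which attaches the first fatty acid to glycerol, was less spread, at 6080, 4053 and 6991 against 960, 1892 and 1653 (log2 difference -1.95, SE 0.34, DESeq2 adjusted p 0.0003), and so was Srebf1, the transcription factor that drives the pathway (3405, 2201 and 2307 against 654, 877 and 1123, log2 difference -1.58, SE 0.30). Mogat1, a monoacylglycerol acyltransferase outside the list, was at 70.1, 65.3 and 53.2 against 2.9, 6.0 and 6.2 (log2 difference -3.45, SE 0.47, -3.07 in the 2 against 2 libraries, DESeq2 adjusted p 6.7e-06), and was under 10 in every UIS library.

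**Figure D4:**
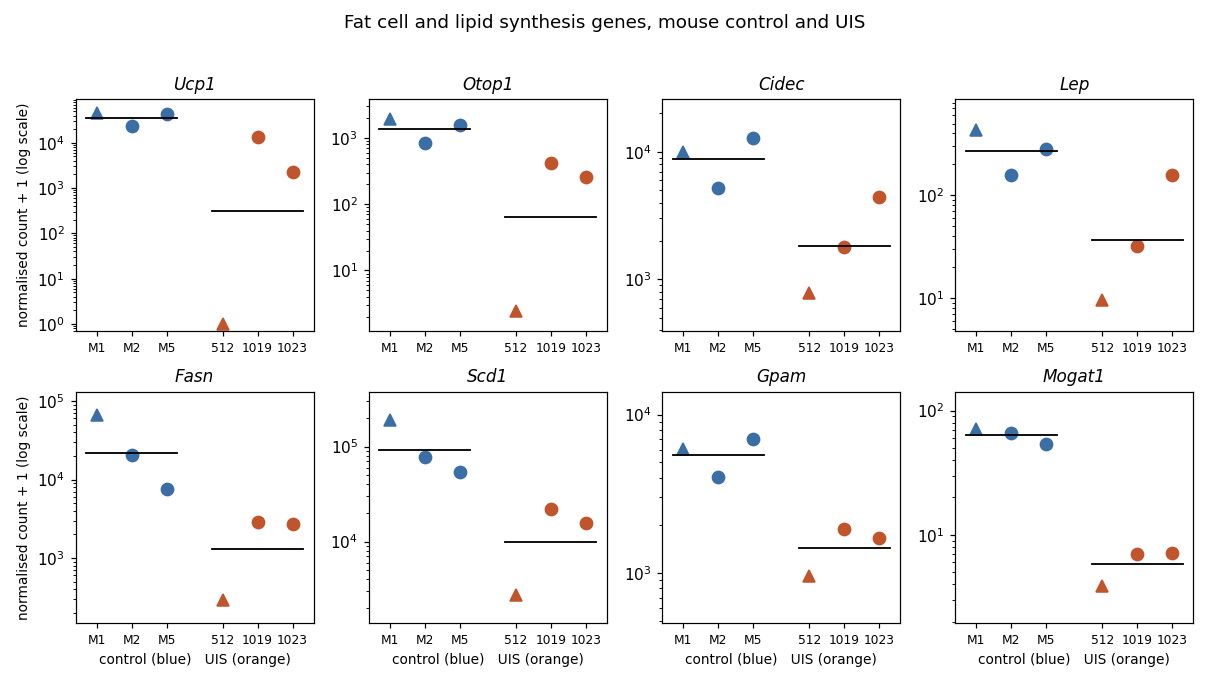
Each panel shows 1 gene with its normalised count + 1 on a log axis in the control (blue) and UIS (orange) libraries, triangles mark the 2 libraries with Xist reads and black lines are geometric means. All 8 genes are lower in every UIS library than in any control, Ucp1 is at 0 in UIS 512, and Lep in UIS 1023 comes within a few counts of control M2.

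Genes of fatty acid oxidation and the citrate cycle were lower in part and by smaller amounts. Of 25 genes of lipolysis and fatty acid oxidation, all tested, 9 were lower without overlap (36%) and 1, Pdk4, was higher (4%), with a median log2 difference of -0.81, -0.45 without UIS 512 and -0.48 in the 2 against 2 libraries. Ehhadh, a peroxisomal enzyme of fatty acid oxidation, was the most even, at 1670, 1298 and 2413 against 438, 452 and 494 (log2 difference -1.91, SE 0.28, -1.90 in the 2 against 2 libraries, DESeq2 adjusted p 2.6e-05). Etfdh, which passes electrons from this oxidation to the respiratory chain, was at 15203, 10901 and 16170 against 4274, 6024 and 8102 (DESeq2 adjusted p 0.046), and Cpt2, of carnitine-dependent import into mitochondria, was at 5543, 5392 and 5713 against 1162, 2426 and 3285. Of 19 citrate cycle genes, 11 were lower without overlap (57.9%) and none was higher, with a median of -0.54, for example Dlst, a subunit of 2-oxoglutarate dehydrogenase (16129, 13597 and 14320 against 6427, 10703 and 9755). The 40 genes of the respiratory chain had 4 members lower without overlap (10%, near the background of 11.7%), and their median went from -0.34 to 0.08 without UIS 512. None of the 23 genes of glycolysis and glycogen was free of overlap.

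Tendon genes were lower in all 3 UIS libraries, by amounts that differed little without UIS 512. Of 5 tendon markers, 4 were lower without overlap (80%, against the background of 11.7%). The median log2 difference was -2.85, -2.90 without UIS 512 and -3.12 in the 2 against 2 libraries. Tnmd, the tendon membrane protein tenomodulin, was at 55.4, 162 and 330 against 5.8, 16.9 and 9.3 (log2 difference -3.75, SE 0.71, DESeq2 adjusted p 2.6e-05). Fmod, a proteoglycan that regulates collagen fibrils, was at 457, 462 and 2235 against 37.4, 48.4 and 135 (log2 difference -3.61, SE 0.73, DESeq2 adjusted p 0.00015), and Thbs4, a matrix protein of tendon, was at 1341, 1162 and 3763 against 271, 148 and 390. Scx, the transcription factor that defines the lineage, overlapped at 92.1, 149 and 70.2 against 28.8, 120 and 120. Comp and Chad, proteins of cartilage and tendon, were highest in control M5, at 38.3, 91.4 and 326 against 1.4, 4.8 and 11.3 for Comp and at 18.7, 53.2 and 306 against 1.4, 2.4 and 10.3 for Chad.

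Of 41 extracellular matrix genes tested, 8 were lower without overlap (19.5%) and none was higher without overlap, with a median of -1.28, -0.77 without UIS 512 and -1.10 in the 2 against 2 libraries, and DESeq2 called 7 of the 8. The list's median in UIS 1019 was -0.03, above those of controls M1 (-0.49) and M2 (-0.26). Col14a1, a fibril-associated collagen (chr15:55307750-55520803, plus strand), was at 609, 701 and 1462 against 40.3, 131 and 118 (log2 difference -3.31, SE 0.54, -3.02 in the 2 against 2 libraries, DESeq2 adjusted p 4.5e-06). Col12a1, of the same collagen class, was at 439, 356 and 1096 against 31.7, 100 and 93.8, and Dcn, decorin, at 16870, 13018 and 18929 against 3048, 5456 and 7462. The fibrillar collagen Col1a1 overlapped, at 505, 3348 and 6447 against 147, 4109 and 230, with UIS 1019 above 2 of the controls. Of 10 fibroblast markers, 4 were lower without overlap (40%), among them Mfap5, a microfibril protein (416, 624 and 670 against 112, 181 and 185, log2 difference -1.84, SE 0.33, DESeq2 adjusted p 0.00029), while Pdgfra, the defining receptor, overlapped. Several genes outside the lists were as even. Gsn, the actin-severing protein gelsolin, was at 51857, 29104 and 52607 against 5165, 6605 and 10066 (log2 difference -2.62, SE 0.38, DESeq2 adjusted p 5e-07). Ackr4, a scavenging receptor for chemokines, was at 80.7, 46.2 and 109 against 7.2, 3.6 and 2.1 (log2 difference -3.94, SE 0.57) and so under 10 in every UIS library, and Wee1, a kinase that holds back mitosis, at 153, 144 and 181 against 21.6, 37.5 and 27.9 (log2 difference -2.45, SE 0.35, DESeq2 adjusted p 1.7e-06).

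**Figure D5:**
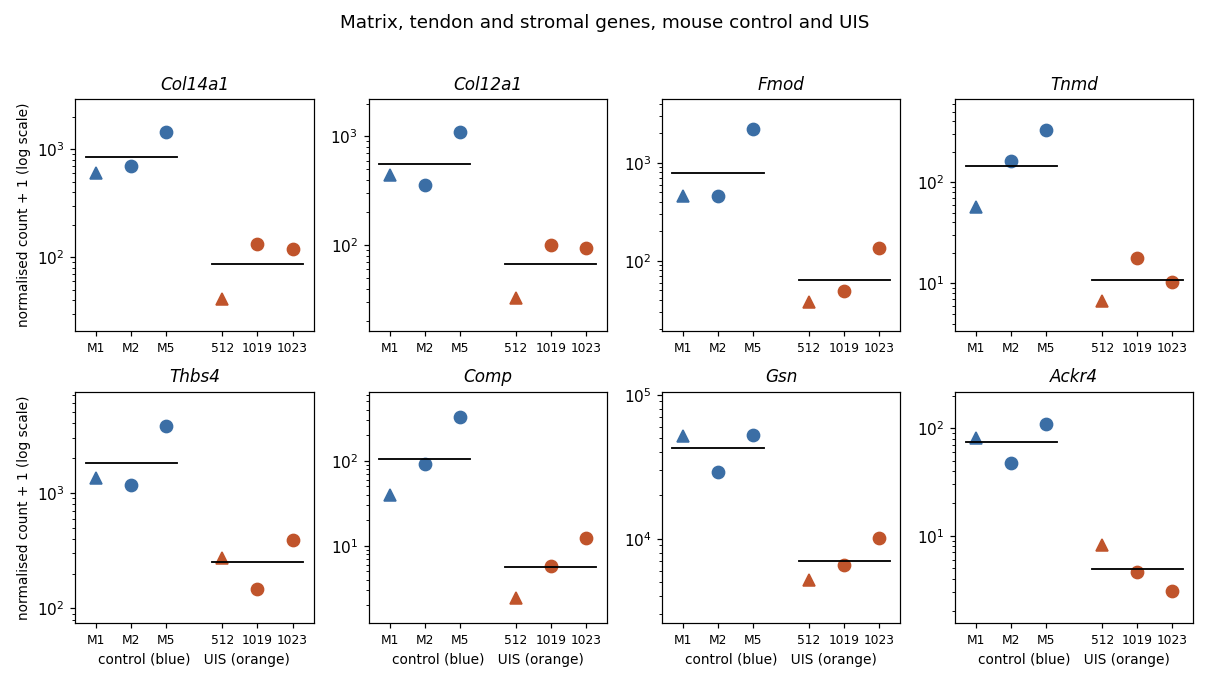
Each panel shows 1 gene with its normalised count + 1 on a log axis in the control (blue) and UIS (orange) libraries, triangles mark the 2 libraries with Xist reads and black lines are geometric means. All 8 genes are lower in every UIS library than in any control, and control M5 is the highest library for each of them.

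Other resident cells were measured too. Of 9 macrophage markers, 2 were lower without overlap (22.2%, against the background of 11.7%) and none was higher. They were Cd163, a scavenger receptor of resident macrophages (953, 415 and 1303 against 61.9, 206 and 364), and Mrc1. Adgre1, the defining marker, overlapped at 237, 162 and 421 against 25.9, 461 and 91.8. The list's median log2 difference was -1.31, and -0.295 without UIS 512. In UIS 1019 the list's median was 0.625, above those of all controls. Of 8 Schwann cell and nerve genes tested, 2 were lower without overlap (25%, against the background of 11.7%) and none was higher. They were the myelin protein gene Pmp22 (1924, 1388 and 2466 against 1077, 1013 and 793) and S100b (1017, 274 and 566 against 18.7, 145 and 171). The neurofilament genes Nefl and Nefm of nerve did not pass the filter. In UIS 1019 they reached 188 and 156 reads, against 4 reads or fewer in every other library. Of 8 endothelial markers 1, Tie1, was lower (12.5%, near the background of 11.7%), none of the 6 smooth muscle markers was free of overlap, and neither was any of the 5 erythroid genes tested.

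Stress and timing genes showed smaller differences. Of 25 immediate early genes, all tested, 8 were higher without overlap (32%) and none was lower, for example Junb, a subunit of the AP-1 transcription factor (447, 261 and 327 against 805, 781 and 1150, log2 difference 1.41, SE 0.30, DESeq2 adjusted p 0.0059), and Cyr61, a secreted matrix signal (1165, 777 and 1001 against 2146, 1729 and 1995, DESeq2 adjusted p 0.035). Fos overlapped. Of 20 p53 response genes tested, 3 were higher without overlap (15%), namely Eda2r, Btg2 and Mdm2, and 1, Ei24, was lower (5%). Eda2r, a receptor of the tumor necrosis factor family, was at 340, 359 and 865 against 3606, 1059 and 1351 (DESeq2 adjusted p 0.043, 0.14 without UIS 512). Cdkn1a, the p21 cell cycle inhibitor, overlapped at 1736, 477 and 1313 against 6058, 1452 and 3657. Of 19 clock genes, 1 was higher and 1 lower without overlap (5.26% each, below the background of 9.53% and 11.7%). Hlf was the lower one (1131, 934 and 1221 against 202, 578 and 277, log2 difference -1.77, SE 0.40, DESeq2 adjusted p 0.021). Nfil3, a repressor of the same target sites, was the higher one (744, 553 and 460 against 1047, 825 and 1237). The central activator Arntl overlapped at 346, 60.3 and 120 against 2601, 273 and 939, and Dbp at 574, 3454 and 1873 against 67.7, 1541 and 197. The hour of sampling is not given in the sources used here. Of 17 genes tested of the unfolded protein and integrated stress response, 3 were higher without overlap (17.6%) and 1 was lower (5.88%). The median log2 difference was 0.08, and 0.22 without UIS 512, and DESeq2 called none. Atf4, the effector of the integrated stress response, was among the higher (4251, 5600 and 4634 against 14968, 7508 and 8068). Its target Asns, asparagine synthetase, was the lower one (962, 466 and 714 against 74.9, 243 and 309).

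Of 15 heat shock genes, 3 were higher without overlap (20%) and 2 lower (13.3%, near the background of 11.7%). The small heat shock gene Hspb7 was the most even, at 11305, 10833 and 11312 against 20755, 31905 and 18936 (log2 difference 1.06, SE 0.30, DESeq2 adjusted p 0.019). Of 14 heme and iron genes tested, 3 were lower without overlap (21.4%), among them Alas1 and the ferritin light chain gene Ftl1, and none was higher. Alas1, the first enzyme of heme synthesis, was at 3124, 3641 and 3076 against 1481, 2247 and 2298. Of 18 cytokine and acute phase genes tested, Il1r1 was the 1 that was higher without overlap (5.56%), and Orm1, an acute phase plasma protein, and Steap4 were lower (11.1%, near the background). Orm1 was at 856, 353 and 283 against 14.4, 33.9 and 140 (log2 difference -3.38, SE 0.82, DESeq2 adjusted p 0.011).

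A last pair of lists held the paper's candidate genes for cancer susceptibility. The paper first took genes that differed between control and tumor-bearing UIS tissue of the blind mole rat Spalax. It then clustered these genes with non-tumor samples that included mouse control and mouse UIS, and picked the candidates by their pattern. The mouse libraries therefore took part in the choice, and the counts are not independent evidence. The first list held genes higher in susceptible samples than in Spalax controls, and the second held genes lower in them. The paper counted mouse control and mouse UIS both as susceptible, so it named no direction between them. In the first list all 12 genes were tested, and 1 was higher without overlap (8.33%, near the background of 9.53%). This was Slc38a6, by a narrow margin, at 1327, 1384 and 1221 against 3259, 1385 and 1393. In the same list 3 were lower (25%, against the background of 11.7%), namely Ptger1, Deptor and Ucp1. In the second list 5 of 13 genes passed the filter, and 3 of these were lower without overlap (60%). They were Marc1, of the mitochondrial outer membrane (79.8, 59.3 and 46.8 against 24.5, 12.1 and 24.8, log2 difference -1.59, SE 0.45), the annexin gene Anxa8 (88.0, 61.3 and 160 against 25.9, 13.3 and 51.6) and Cmtm5, which was under 10 in every UIS library. Among the 8 that were not tested, Serpina6 was at 0 in all 6 libraries, and Ccl1 and Cdh8 did not exceed 1.2. Of the exon bases of Ptger1, 71.0% lie under exons of another gene on the opposite strand, and the strand setting of the counting is not given in the sources used here.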

How the data were processed

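RNA was sequenced from neck muscle of 3 untreated mice and from the uninjected side of 3 mice with a fibrosarcoma. The authors prepared stranded libraries, sequenced single ends, ran Trimmomatic and then TopHat2 against a mouse genome (GRCm38 in the submitters' processing notes, which name TopHat 1.4.1) and counted reads per gene with HTSeq. What the authors deposited is a normalised signal for each gene, its reads over a size factor that is common to a library. All values were whole multiples of 1 step per library within a tolerance of 0.001 of a read (100% of values, steps of 0.709 to 1.44), so whole reads were recovered. A value of 10 rests on 6.95 to 14.1 reads, and reads carry no molecular identifiers. No replicate pair was a copy, with a chi-square per degree of freedom of at least 70.7.

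Genes with a value of at least 10 in at least 3 of the 6 libraries were tested in R 4.3.3 on log2(value + 1), using limma 3.58.1 with a mean-variance trend, Benjamini-Hochberg adjustment and no covariates. This understates the difference of genes with low values. edgeR 4.0.16 (quasi-likelihood) and DESeq2 1.42.0 on the recovered reads, other scalings, pseudocounts and filters, all 9 mouse libraries, array weights and each library left out were the alternatives. Leaving out control M1 and UIS 512, a covariate for them, and count tests without UIS 512 were added after the data were seen. The fits were tested on simulated counts that gave every gene the same dispersion and held no library like UIS 512. That test therefore does not bear on the differing numbers of calls. Groups were called without overlap when every UIS value lay beyond every control value.

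The comparison and the gene lists were chosen with earlier results of these data known. Genes were named by rule: the first member and up to 6 members with the smallest unadjusted p of each list, the 12 largest differences in each direction among genes with an unadjusted p under 0.05 and no overlap, up to 8 genes per direction with the smallest DESeq2 adjusted p, and the study's candidates. Trim63, Nr3c1 and others named to fill a count of 5 or fewer, and the sex-linked genes, were named after their values were seen. Some members of the lists are not reported here. Positions are those of GENCODE vM21. The table lists Depp1 and Ccn5 under the older symbols 8430408G22Rik and Wisp2. Whether mice of a group shared a cage or litter is not given in the sources used here.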

Additional observations from a re-analysis of the deposited data

How the results depend on the processing

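No paired analysis was possible because the control and UIS libraries come from different mice and share no replicate number. No gene passed limma's adjusted p under the planned scalings, pseudocounts, filters or left-out libraries or in edgeR, against 342 calls in DESeq2, 550 in DESeq2 without UIS 512 (225 higher), 227 in DESeq2 without control M1 and UIS 512, 1 in limma with the Xist covariate (Cyp1a1) and 2852 with array weights (1216 higher), which weighted UIS 512 at 0.12 and UIS 1023 at 5.96. Genes at an unadjusted p under 0.05 (515 higher, 1106 lower) numbered 226 higher and 1521 lower with total reads scaling, a share of 12.9% higher against 31.8%, 1092 higher in DESeq2, 867 higher in DESeq2 without UIS 512, 2575 higher and 2989 lower with array weights, 594 lower without control M1 and UIS 512 and 661 lower when DESeq2 was run without them. Leaving out 1 library gave 178 to 810 higher and 412 to 1510 lower, the lowest without control M5 (178 and 412) or M1 (185 and 501) and the highest without UIS 1019. Genes without overlap (1410 higher, 1728 lower) numbered 594 higher and 2473 lower with total reads scaling, which shifted the median of all genes by -0.27, and 2578 higher and 2817 lower without control M1 and UIS 512, where fewer libraries leave fewer chances to overlap. With 1 library left out there were 1709 to 2850 higher and 2073 to 3076 lower, by the same construction. Of the genes examined, 4 reversed. Ighm turned to -0.142 with total reads scaling, -0.310 without control M1 (-0.310 to 0.613 with any 1 library left out), -0.163 without UIS 1019, and -0.054 and -0.104 without control M1 and UIS 512 in limma and DESeq2. Mki67 and Top2a turned to -0.083 and -1.356 without UIS 1019, which alone held their high values, and ranged up to 2.346 and 2.147 without UIS 512. Myh7 turned to 0.540 with array weights, to 0.570, 0.493 and 0.491 without UIS 512 in limma, edgeR and DESeq2 (-1.451 without UIS 1019), and to 0.733 and 0.631 without control M1 and UIS 512. The cause was not tested. Of 44 list medians, 15 took the other sign under some alternative, among them the slow fibre list. Genes close to the minimum value are limited by the number of reads, and the others by 3 libraries per group.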

Other observations

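The tumors of the same mice, which enter the comparison above only in the alternative that fits all 9 mouse libraries together, give the injected side (IS) values of some of the genes described. Cyp1a1 was at 182, 68.7 and 89.0 in the IS libraries of mice 512, 1019 and 1023, within the range of the controls, while it was at 7296, 2169 and 5126 on their uninjected side. Ahrr was at 41.1, 56.9 and 42.1 in the IS libraries, above the controls (4.9, 2.0 and 8.5) in each. Xist was at 21588 in the IS library of mouse 512 and at 1.6 and 1.8 in those of mice 1019 and 1023, and Ddx3y was at 0 in the first and at 1556 and 1912 in the others, so both libraries of mouse 512 differ from its label in the same way. Igkc was at 11.6, 2800 and 566 and Jchain at 3.7, 1220 and 196 in the IS libraries. S100a9 was at 143, 163 and 679 there, so in mouse 1023 it was higher on the uninjected side (7437) than in the tumor, and this difference was not tested.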
